A study of Homo sapiens with 6 samples.

Results

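Follicular lymphoma is a cancer of germinal centre B cells in which genes for histone-modifying and chromatin-remodelling enzymes are often mutated. The 8 regulators described here were chosen by gene symbol from a table of 15802 genes, and 8 of 8 were found. They are the histone H3 lysine 4 methyltransferases KMT2D and KMT2C, the acetyltransferases CREBBP and EP300, the Polycomb methyltransferase EZH2, the SWI/SNF subunits ARID1A and SMARCA4, and the histone deacetylase HDAC3. RNA was sequenced in bulk from SC1, an established human B-cell lymphoma line. One group received bryostatin at 1 nM, and the control group received DMSO, the solvent. Bryostatin, a marine macrolide, acts on protein kinase C through its diacylglycerol site. Each group held 3 libraries, named bryostatin 1 to 3 and DMSO 1 to 3. SC1 is 1 cell line, and the labels give neither the time of treatment nor whether replicates were separate cultures, so the spread that p-values measure is that among these 6 libraries and may be technical.

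These enzymes act on enhancers and promoters in opposing ways. KMT2D and KMT2C place methyl groups on histone H3 lysine 4 at enhancers, and CREBBP and EP300 acetylate histone tails there, which favours transcription. EZH2, the catalytic subunit of Polycomb repressive complex 2, methylates histone H3 lysine 27 and silences genes in germinal centre B cells, while HDAC3 removes acetyl groups as part of a corepressor complex that the germinal centre repressor BCL6 recruits. ARID1A and SMARCA4 belong to SWI/SNF complexes, which use ATP to move nucleosomes.

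Total expected counts (estimated reads per gene, which need not be whole) were 18162161 to 18915394 per library, with 13930 to 14357 genes above 0. Of 6 B-cell markers, 6 were in the table, and their summed level was 3135 to 3269 CPM (a gene's counts per 1000000 after TMM scaling) with bryostatin and 2049 to 2153 with DMSO. Summed marker levels for myeloid cells, for T or NK cells, and for epithelium with stroma and endothelium lay between 1.54 and 6.64 CPM in every library. The part of the B-cell marker difference in the results was not tested, and in bulk RNA fewer cells with a transcript and less of it per cell cannot be told apart. One library, bryostatin 1, stood apart. Its counts were tilted against long transcripts, which bears on most of the 8 genes, so results are given with and without it.

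The transcripts of the 8 regulators ranged from short to very long. By GENCODE release 29 on GRCh38, the coding transcript with the longest reading frame was 19419 bases in 54 exons for KMT2D (chromosome 12, 49018975 to 49059774, minus strand) and 16862 bases in 59 exons for KMT2C (chromosome 7, 152134922 to 152436005, minus strand). It was 10803 bases for CREBBP (chromosome 16, 3725054 to 3880726, minus strand) and 9587 bases for EP300 (chromosome 22, 41091786 to 41180079, plus strand), each in 31 exons. ARID1A (chromosome 1, 26693236 to 26782110, plus strand) had 8583 bases in 20 exons and SMARCA4 (chromosome 19, 10960825 to 11079426, plus strand) 5512 bases in 37 exons. The shortest were EZH2 (chromosome 7, 148807383 to 148884321, minus strand), with 2639 bases in 20 exons, and HDAC3 (chromosome 5, 141620876 to 141636870, minus strand), with 1959 bases in 15 exons. GC content did not follow length: it was 59.1% in KMT2D, 45.0% in KMT2C, 59.9% in SMARCA4 and 44.8% in EZH2. KMT2C has duplicated, near-identical exons elsewhere in the genome, so its estimated counts may be less certain than those of the others, which was not tested.

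The promoter of EZH2 is shown because EZH2 was the regulator whose bryostatin libraries all lay below the DMSO libraries. The same held for 12.5% of 11613 genes tested. The window holds the 250 bases before a RefSeq start (GRCh38.p14, chr7:148884292-148884541, minus strand, printed 5′ to 3′), and its last bases reach into the GENCODE gene. Capitals mark CCAAT, the box bound by the factor NF-Y, and GGGCGG, the GC box bound by factors of the SP family, each on either strand.
EZH2: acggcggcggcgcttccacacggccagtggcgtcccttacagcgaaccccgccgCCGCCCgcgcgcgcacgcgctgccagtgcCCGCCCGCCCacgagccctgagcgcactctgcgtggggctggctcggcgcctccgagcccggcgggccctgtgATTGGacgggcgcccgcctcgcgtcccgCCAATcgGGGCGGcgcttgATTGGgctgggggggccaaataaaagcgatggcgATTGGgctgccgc
The window held 4 CCAAT matches, and 0.874% of 35116 RefSeq promoter windows of the same length held as many. The other of the 2 EZH2 windows held 0 CCAAT matches. Over the 11 windows of the 8 genes, CCAAT was found in 1, against 32.0% of all windows, and GGGCGG in 9, against 42.6% of all. A match describes the letters only.

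Levels per length were compared as TPM (transcripts per 1000000, which divides by transcript length). In DMSO the SWI/SNF ATPase gene SMARCA4 had the highest level of the 8, at 240.46, 249.04 and 253.28 TPM in DMSO 1, 2 and 3. EZH2 followed with 109.57, 103.59 and 109.53 TPM, and HDAC3 with 85.84, 84.40 and 88.39 TPM. Each of these ranges lay clear of the next. EP300 had 46.87, 47.75 and 51.31 TPM and ARID1A 46.35, 48.26 and 50.08 TPM, which overlap, so these neighbours in the order did not differ beyond their spread. CREBBP had 31.24, 32.16 and 33.74 TPM, KMT2C 15.94, 16.58 and 17.48 TPM, and KMT2D 5.67, 5.98 and 6.28 TPM. The lowest levels per length were therefore those of the KMT2 methyltransferases, and their long transcripts still collected 1450 to 1552 and 3235 to 3458 expected counts in a DMSO library. In bryostatin 2 and 3 the order was close to that in DMSO, with ARID1A (53.03 and 52.33 TPM) and EP300 (52.30 and 52.09 TPM) again alike.

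**Figure D1:**
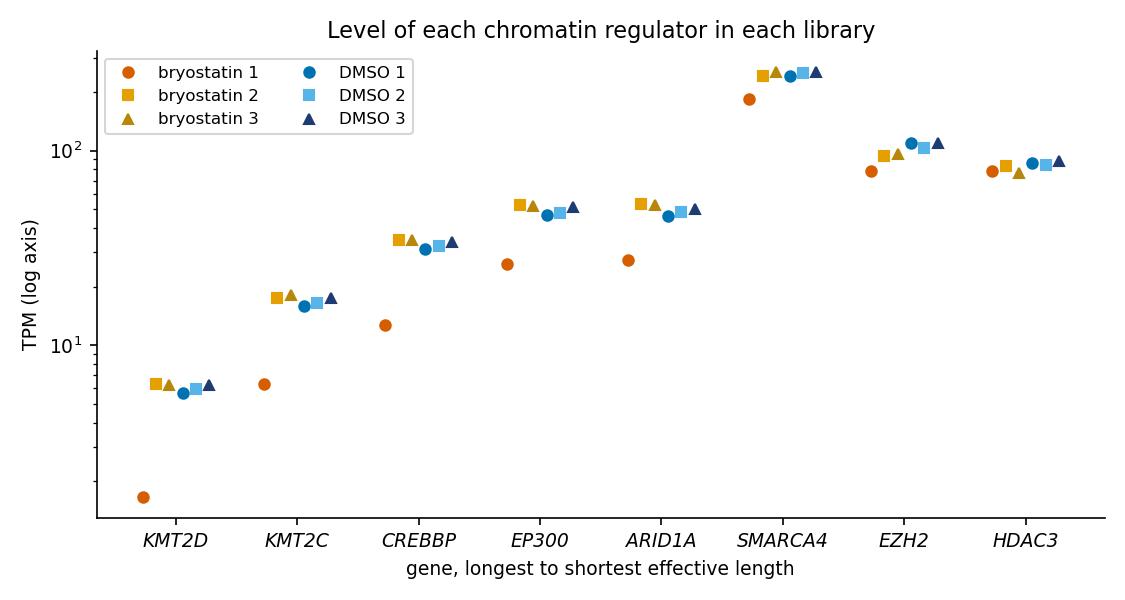
TPM (log axis) of the 8 chromatin regulators in each of 6 libraries, 1 point per library, ordered from longest to shortest transcript. SMARCA4 is highest and KMT2D lowest, and bryostatin 1 lies far below the other libraries for KMT2D (1.67 TPM), KMT2C (6.33 TPM) and CREBBP (12.70 TPM).

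With all 6 libraries, no change of the 8 regulators with bryostatin passed the test. In edgeR's quasi-likelihood test with Benjamini-Hochberg adjustment over 11613 genes (adjusted p under 0.05), 0 of 8 rose and 0 fell, against 4.56% of all tested genes that changed, 3.72% higher and 0.835% lower. Before adjustment the count at p under 0.05 was 1, EZH2, against 18.7% of all tested genes. DESeq2 likewise called 0 of 8, where it called 629 genes higher and 236 lower in all, and had 1 of 8 before adjustment, against 13.0% of its genes. The median log2 fold change of the 8 was -0.13, beside -0.00 (-0.00139) for all tested genes. The groups did not overlap for 1 of 8, EZH2, while 27.8% of all tested genes had this. Without bryostatin 1, ARID1A and EP300 passed as higher and EZH2 as lower, 3 of 8 against 27% of all genes tested in that fit.

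KMT2D, an enhancer methyltransferase often mutated in this lymphoma, was measured at 26.5, 84.7 and 84.4 CPM in bryostatin 1, 2 and 3 and at 75.3, 81.1 and 82.0 CPM in DMSO 1, 2 and 3. Bryostatin 1 was low, at 33.3% of the DMSO mean, and the other bryostatin libraries lay above all DMSO libraries. The log2 fold change was -0.28 ± 0.36 (SE, edgeR adjusted p = 0.723) with all libraries and 0.09 ± 0.06 (adjusted p = 0.260) without bryostatin 1. Its 463 expected counts in bryostatin 1 have an exact 95% Poisson interval of 422 to 507, far under the 1450 of the lowest DMSO library. That interval covers counting error only. Only 41 of 11613 tested genes were further below their DMSO mean in bryostatin 1.

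KMT2C, its closest relative, showed the same split. It was measured at 76.4, 184 and 195 CPM in bryostatin 1, 2 and 3 and 168, 178 and 183 CPM in DMSO 1, 2 and 3. Bryostatin 1 was at 43.3% of the DMSO mean, while bryostatin 2 and 3 were just above the highest DMSO library. The log2 fold change was -0.22 ± 0.29 (edgeR adjusted p = 0.738), and 0.10 ± 0.05 without bryostatin 1 (adjusted p = 0.131). For both KMT2 genes the sign of the estimate thus depended on 1 library.

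The acetyltransferase genes behaved alike. CREBBP stood at 97.9, 190 and 201 CPM in bryostatin 1, 2 and 3 and at 178, 184 and 183 CPM in DMSO 1, 2 and 3, so bryostatin 1 was at 53.8% of the DMSO mean and the other bryostatin libraries were above every DMSO library. EP300 stood at 174, 291 and 293 CPM with bryostatin and 259, 270 and 279 CPM with DMSO, with bryostatin 1 at 64.4% of the DMSO mean. Log2 fold changes were -0.16 ± 0.23 for CREBBP (edgeR adjusted p = 0.761) and -0.09 ± 0.18 for EP300 (adjusted p = 0.823). Without bryostatin 1 they were 0.10 ± 0.04 (adjusted p = 0.0891) and 0.11 ± 0.04. EP300 then sat at the threshold (adjusted p = 0.04998) and was counted as higher. With the trend of counts on transcript length removed as well, EP300 no longer passed, at 0.05 ± 0.04 (adjusted p = 0.381).

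ARID1A, the DNA-binding subunit of the canonical SWI/SNF complex, was measured at 178, 289 and 288 CPM in bryostatin 1, 2 and 3 and 251, 267 and 267 CPM in DMSO 1, 2 and 3. Bryostatin 1 was again low, at 68.2% of the DMSO mean, and bryostatin 2 and 3 were above the DMSO range. The log2 fold change was -0.05 ± 0.17 (edgeR adjusted p = 0.897) with all libraries. Without bryostatin 1 ARID1A passed as higher, by 0.14 ± 0.04 (adjusted p = 0.0169, 1.10-fold), and with the length trend also removed it did not, at 0.08 ± 0.04 (adjusted p = 0.168). SMARCA4, the ATPase of that complex, was nearly level, at 738, 815 and 856 CPM with bryostatin and 804, 852 and 834 CPM with DMSO. The groups overlapped for SMARCA4, with log2 fold changes of -0.05 ± 0.07 (adjusted p = 0.773) and 0.01 ± 0.04 without bryostatin 1 (adjusted p = 0.911).

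EZH2 was the regulator lower in all bryostatin libraries. It was measured at 142, 143 and 148 CPM in bryostatin 1, 2 and 3 and 165, 161 and 162 CPM in DMSO 1, 2 and 3. The groups did not overlap, and bryostatin 1 lay beside bryostatin 2. Of all tested genes, 12.5% likewise had every bryostatin library below every DMSO library. The log2 fold change was -0.17 ± 0.06 (unadjusted p = 0.0192, edgeR adjusted p = 0.162, range over alternatives 0.00668 to 0.500). It passed as lower without bryostatin 1 (-0.17 ± 0.04, adjusted p = 0.00796, 0.891-fold), also with the length trend removed (-0.16 ± 0.04, adjusted p = 0.00668), and with all 6 libraries weighted by quality (adjusted p = 0.0115, a fit that called 26.2% of all genes). Those weights were 0.104 for bryostatin 1 and 1.22 to 1.90 for the others, so that fit came close to leaving bryostatin 1 out. The estimate stayed between -0.27 and -0.16 in 19 of 19 alternative settings.

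HDAC3, the catalytic subunit of a nuclear corepressor complex, was measured at 101, 89.6 and 83.5 CPM in bryostatin 1, 2 and 3 and 92.5, 92.9 and 93.8 CPM in DMSO 1, 2 and 3. The DMSO libraries were tightly grouped, with bryostatin 1 above them and bryostatin 2 and 3 below. The log2 fold change was -0.03 ± 0.08 (edgeR adjusted p = 0.890), and -0.11 ± 0.05 without bryostatin 1 (adjusted p = 0.147).

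**Figure D2:**
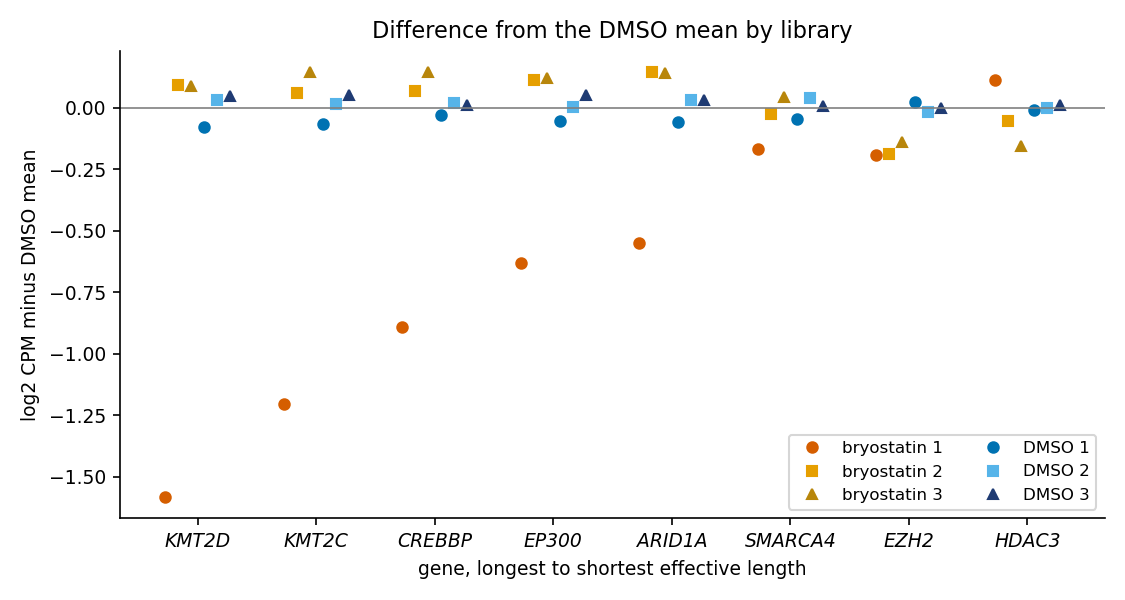
Log2 CPM minus the DMSO mean for the 8 genes in each library, 1 point per library, ordered from longest to shortest transcript. Bryostatin 1 climbs from -1.58 for KMT2D to 0.11 for HDAC3, while bryostatin 2 and 3 stay between -0.19 and 0.14.

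The size of the difference in bryostatin 1 followed transcript length. Relative to the DMSO mean, log2 CPM in bryostatin 1 was -1.58 for KMT2D, -1.20 for KMT2C, -0.89 for CREBBP, -0.63 for EP300, -0.55 for ARID1A, -0.17 for SMARCA4, -0.19 for EZH2 and 0.11 for HDAC3. Across these 8 genes, which share the library, Spearman's rho with effective length (the length implied by the deposited counts and FPKM) was -0.98. In bryostatin 2 and 3 it was 0.57 and 0.74, over differences of far smaller size. It was -0.81, 0.45 and 0.76 in DMSO 1, 2 and 3, also over far smaller differences, so rho over 8 genes can be large in any library. Over 11605 tested genes with a length, rho was -0.41 in bryostatin 1. It was 0.20 in bryostatin 2, 0.13 in bryostatin 3, and from -0.20 to 0.17 in the DMSO libraries. The tilt was therefore a property of the whole library, and over all tested genes it was weak in the others. The DMSO libraries are set against their own mean, so trends of opposite sign among them are built in.

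The longest of these transcripts were lower in bryostatin 1 than most genes of similar length. KMT2D, KMT2C, CREBBP, EP300 and ARID1A were in the longest length decile of tested genes, 1161 genes from 6389 bases upward, whose median difference was -0.36 in bryostatin 1 and 0.08 and 0.06 in bryostatin 2 and 3. In the shortest decile, up to 990 bases, the medians were 0.25, -0.11 and -0.07. Of the 1161 long genes, 7 were lower in bryostatin 1 than KMT2D, 39 lower than KMT2C, 127 lower than CREBBP, 285 lower than EP300 and 357 lower than ARID1A. Among the 241 tested genes of at least 10000 bases, 205 were below their DMSO mean in bryostatin 1 with a median of -0.50, 1 was lower than KMT2D and 14 were lower than KMT2C. SMARCA4 was 0.05 and HDAC3 -0.04 from the median of its own length decile. EZH2 was -0.29 from that of its decile, about as far as EP300 (-0.28 from its own), with 214 of 1160 genes lower. Without bryostatin 1 the median log2 fold change of the longest decile was 0.07, beside 0.09 to 0.14 for its 5 genes described here. RNA quality of single libraries was not analysed here, and its part in the tilt was not tested.

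**Figure D3:**
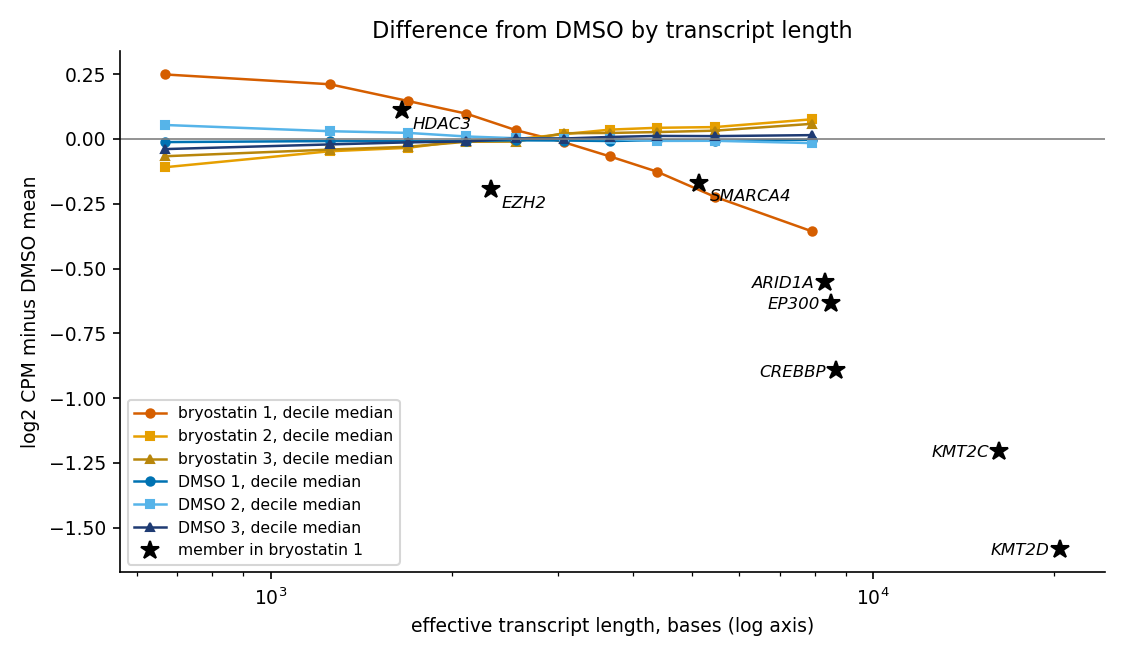
Median log2 CPM minus the DMSO mean for deciles of tested genes by effective transcript length (log axis), 1 line per library, with the 8 regulators in bryostatin 1 as stars. The bryostatin 1 line drops from 0.25 to -0.36, and KMT2D, KMT2C and CREBBP lie below its end.

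Removing the length trend from each library narrowed the errors but left 0 of 8 called, against 10.7% of all tested genes, 6.74% higher and 4% lower. The log2 fold changes were then -0.22 ± 0.21 for KMT2D (edgeR adjusted p = 0.563), -0.15 ± 0.16 for KMT2C (adjusted p = 0.589), -0.12 ± 0.13 for CREBBP (adjusted p = 0.597) and -0.20 ± 0.06 for EZH2 (adjusted p = 0.0547). With the trend removed and bryostatin 1 left out, EZH2 alone of the 8 passed, against 27.9% of all genes, and the 5 longest had estimates of 0.04 to 0.08. Of the 8 regulators, 7 had bryostatin 2 and 3 clear of the DMSO range, 5 above and 2 below, but so did 51.9% of all tested genes.

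**Figure D4:**
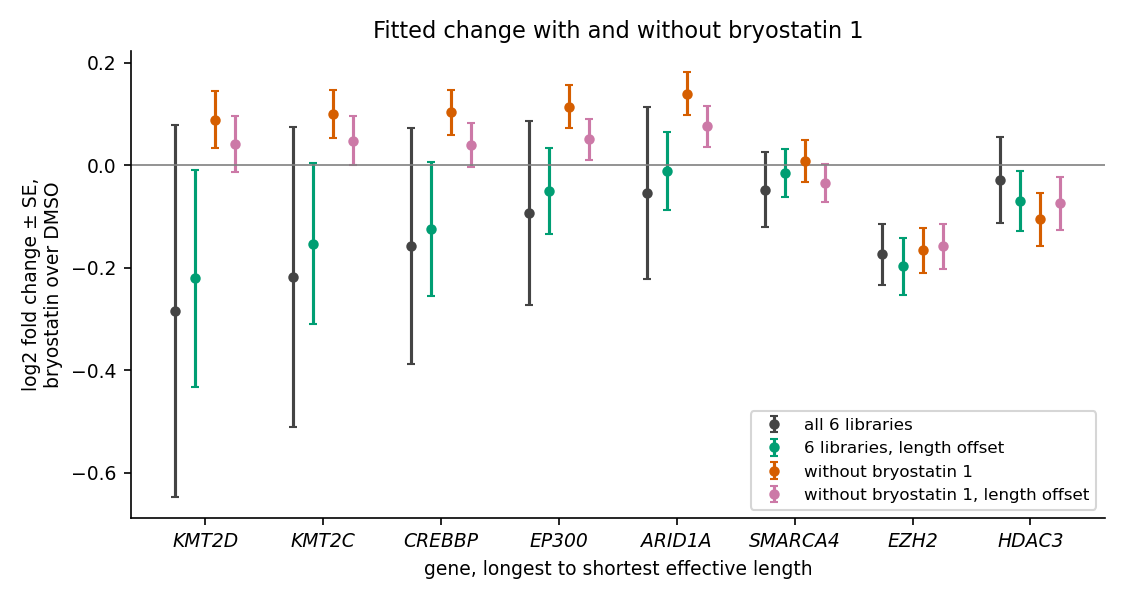
Log2 fold change of bryostatin over DMSO with its SE for the 8 genes, in 4 fits that keep or leave out bryostatin 1 and keep or remove the trend with transcript length. Estimates for the longest 5 genes lie below 0 with bryostatin 1 and above 0 without it, and those for EZH2 lie between -0.20 and -0.16 in the 4 fits.

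The effective length of a gene moves with the isoforms that the estimates favoured and with fragment length, which were not told apart here. For 6 of the genes it varied by under 1% over the 6 libraries: from 0.0799% for ARID1A to 0.823% for EZH2. CREBBP varied most, by 18.3%. Its effective length was 9910 bases in bryostatin 1 and 8379 and 8763 in bryostatin 2 and 3, against 8769, 8625 and 8494 in DMSO 1, 2 and 3, so bryostatin 1 was 14.8% above the DMSO mean. Among 9553 tested genes with at least 1 FPKM in every library, 184 differed as much or more in bryostatin 1. KMT2C had 15500 bases in bryostatin 1 and 16125 to 16356 in the other libraries. Between the groups the lowest exact permutation p of the 8 was 0.10 (2-sided, 8 tests, adjusted p = 0.40), which is the smallest that 3 against 3 libraries allow.

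The balance of related enzymes was compared as ratios of TPM within a library. The SMARCA4 to SMARCA2 ratio, between the alternative ATPases of SWI/SNF, was 10.9, 11.01 and 11.8 with bryostatin and 15.98, 18.2 and 16.7 with DMSO. All bryostatin libraries were lower, bryostatin 1 included, and the mean moved from 16.97 ± 1.12 to 11.3 ± 0.503 (SD, n = 3; exact permutation p = 0.10, adjusted p = 0.25 over 5 ratios). In edgeR with all libraries the log2 fold change was -0.05 ± 0.07 for SMARCA4 and 0.45 ± 0.11 for SMARCA2. The EZH2 to EZH1 ratio, between the alternative catalytic subunits of Polycomb repressive complex 2, was 42.1, 30.0 and 41.6 with bryostatin and 45.1, 44.3 and 47.0 with DMSO (exact permutation p = 0.10, adjusted p = 0.25). EZH1 was low, at 6.17 to 8.95 CPM, and bryostatin 2 had the most of it: the log2 difference in the ratio was -0.28 with all libraries and -0.12 without bryostatin 2. The KMT2D to KMT2C ratio was 0.264 in bryostatin 1 and 0.346 to 0.364 in the other 5 libraries (exact permutation p = 0.40), and CREBBP to EP300 was 0.484 in bryostatin 1 and 0.658 to 0.674 in the others (exact permutation p = 0.50). Without bryostatin 1 their log2 differences between groups moved from -0.16 and -0.15 to -0.01 and -0.00. ARID1A to ARID1B overlapped between groups, at 1.24 to 1.34 in both (exact permutation p = 0.70). No ratio could pass, since the smallest exact p in this design is 0.10.

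**Figure D5:**
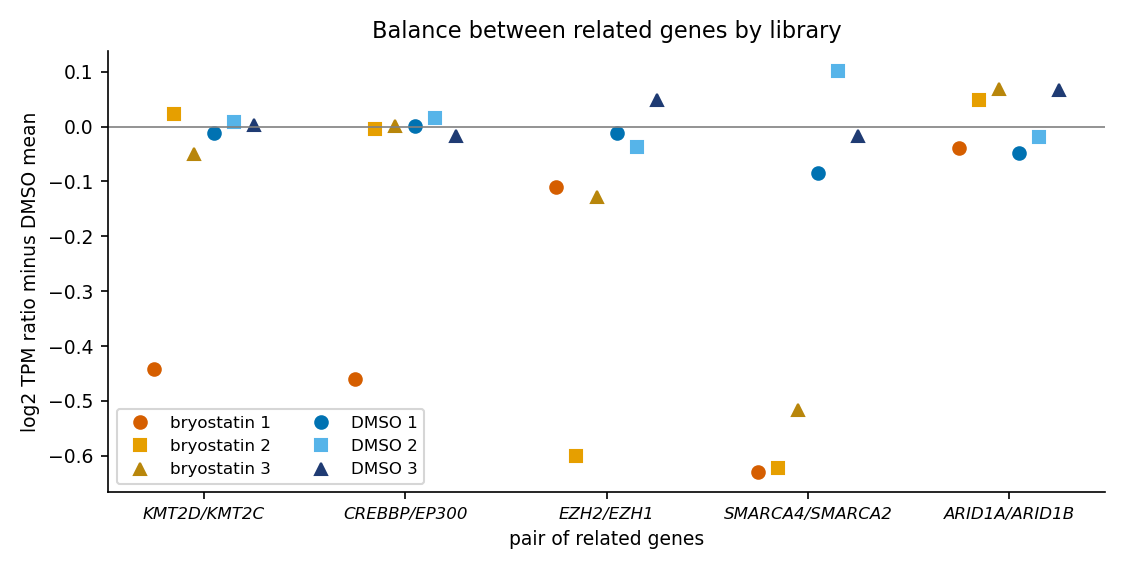
Log2 ratio of TPM between 5 pairs of related genes, minus the DMSO mean of that ratio, 1 point per library. The 3 bryostatin libraries lie below the 3 DMSO libraries for SMARCA4/SMARCA2 and EZH2/EZH1, while bryostatin 1 alone is low for KMT2D/KMT2C and CREBBP/EP300.

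Few genes related to the regulators passed with all libraries. Of 90 tested genes on lists of their complexes and of related histone enzymes, 1 rose and 0 fell (median log2 fold change 0.00444), against the 3.72% and 0.835% of all tested genes given above. Before adjustment, 8 were higher and 1 lower at p under 0.05, against 11.5% and 7.22% of all tested genes, the shares to set beside each list's unadjusted count with all libraries. The riser was HDAC7, a class IIa deacetylase of lymphocytes, at 213, 201 and 203 CPM with bryostatin and 140, 144 and 143 CPM with DMSO. The groups were far apart (log2 fold change 0.53 ± 0.06, edgeR adjusted p = 0.00255), and it passed in every alternative setting (highest adjusted p = 0.0368). Without bryostatin 1, 18 of the 90 rose and 3 fell, against 13.8% and 13.2% of all genes, and the median was 0.05. With all libraries DESeq2, which tested 92 listed genes, called 3 higher (HDAC5, HDAC7 and SMARCA2) and 1 lower (WDR5). Of its 15789 genes in all, it called 629 higher and 236 lower.

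Among other SWI/SNF genes, 0 of 21 passed in edgeR (median log2 fold change -0.01). Before adjustment 1 was higher and 0 lower at p under 0.05. SMARCA2 was at 55.1, 70.3 and 66.7 CPM with bryostatin and 48.8, 44.0 and 48.1 CPM with DMSO, which do not overlap. Its log2 fold change was 0.45 ± 0.11 (edgeR adjusted p = 0.0592), and it passed without bryostatin 1 (0.54 ± 0.06, adjusted p = 9.90e-07) and with all libraries once the length trend was removed (adjusted p = 0.00379). SMARCE1, a DNA-binding subunit, had 0.15 ± 0.07 (adjusted p = 0.304). Without bryostatin 1, 4 of the 21 rose and 0 fell, against 13.8% and 13.2% of all genes in that fit. Before adjustment 7 were higher and 1 lower there, against 19.1% and 18.3% of all genes.

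Among other genes listed for KMT2 methyltransferase complexes, not all of them partners of KMT2D or KMT2C, 0 of 14 passed in edgeR. Their median was -0.01, and 1 was higher and 1 lower before adjustment. WDR5, a scaffold of all KMT2 complexes, was at 103, 106 and 103 CPM with bryostatin and 127, 124 and 123 CPM with DMSO. Its groups were clear of each other (log2 fold change -0.26 ± 0.06, edgeR adjusted p = 0.0532), and it passed as lower without bryostatin 1 (adjusted p = 3.20e-04) or with the length trend removed (adjusted p = 0.0118). MEN1, the menin scaffold of the KMT2A and KMT2B complexes, had 0.24 ± 0.09 (adjusted p = 0.205). Without bryostatin 1, 3 of the 14 rose and 1 fell, against 13.8% and 13.2% of all genes in that fit.

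The lists for Polycomb repressive complex 2, other acetyltransferases and the HDAC3 complex gave 0 calls each with all libraries. Of 10 Polycomb repressive complex 2 genes, PHF19, which helps recruit the complex, had 0.19 ± 0.07 as its log2 fold change (edgeR adjusted p = 0.164) and MTF2, a relative of PHF19, had -0.11 ± 0.06 (adjusted p = 0.426). Of 11 other acetyltransferase genes, KAT5, the TIP60 enzyme, had 0.14 ± 0.08 (adjusted p = 0.400) and KAT2A, the GCN5 enzyme, -0.10 ± 0.07 (adjusted p = 0.443). Of 6 genes of the HDAC3 complex, GPS2, a subunit, had -0.13 ± 0.08 (adjusted p = 0.463). The list medians were -0.04, -0.03 and -0.09, and 1, 0 and 0 genes were higher and none lower before adjustment in edgeR. Without bryostatin 1, 1, 2 and 1 of these genes rose, PHF19 and KAT5 among them, and 0 fell. The shares of all genes in that fit were 13.8% and 13.2%.

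Other histone enzymes and linker histones also showed few calls. Of 10 other deacetylase genes, HDAC7 rose and 9 did not pass, with a median log2 fold change of 0.11. HDAC5, another class IIa enzyme, was at 48.5, 40.0 and 43.5 CPM with bryostatin and 34.3, 32.4 and 32.5 CPM with DMSO, without overlap (0.41 ± 0.10, edgeR adjusted p = 0.0520, and adjusted p = 9.44e-04 without bryostatin 1). Of 14 demethylase genes 0 passed, with KDM4C, a histone H3 lysine 9 demethylase, at 0.31 ± 0.09 (adjusted p = 0.112) and KDM1B, a flavin-dependent demethylase, at 0.22 ± 0.07 (adjusted p = 0.145), and a median of -0.02 (2 higher and 0 lower before adjustment in edgeR). Of 5 linker histone genes 0 passed, with a median of 0.44 (1 higher and 0 lower before adjustment in edgeR). H1-10 had 0.44 ± 0.13 (adjusted p = 0.117), and H1-4, itself mutated in follicular lymphoma, stood at only 0.323 to 1.54 CPM (adjusted p = 0.353), in libraries selected for poly(A) tails, which most H1 transcripts lack. Without bryostatin 1, 3 deacetylase, 3 demethylase and 1 linker histone genes rose and 1, 1 and 0 fell. In that fit 13.8% of all genes rose and 13.2% fell.

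Most long listed genes were low in bryostatin 1, as were the 5 longest regulators and most long genes of any kind. Of the 90 listed genes, 17 were in the longest decile of tested genes, and 16 of these were below their DMSO mean in bryostatin 1, with a median of -0.49. Among all 1161 genes of that decile, 943 were below, with a median of -0.36. In bryostatin 2 and 3 the medians of the 17 were 0.05 and 0.11. Of the 17, 13 (76.5%) were below in bryostatin 1 and above in bryostatin 2 and 3, as were 40.4% of all 1161 genes of that length. The lowest was KMT2A, named after its values were seen, a KMT2 methyltransferase of 15167 bases, at 51.95, 117 and 125 CPM with bryostatin and 107, 102 and 112 CPM with DMSO. Of the other 73 listed genes, 36 were below in bryostatin 1, with a median of 0.00 (0.000965). Over the 11605 tested genes of any known length, 5638 were below.

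Genes described as targets of these regulators in germinal centre B cells changed in both directions. With all libraries 1 of 12 passed as higher and 2 as lower, against 3.72% and 0.835% of all tested genes. Before adjustment, 4 were higher and 2 lower at p under 0.05 in edgeR, against 11.5% and 7.22% of all tested genes. The list was chosen with earlier results of these data known, so its counts cannot test whether such targets change more often than other genes. Of 12 tested, CD74, the class II invariant chain, rose (log2 fold change 0.54 ± 0.07, edgeR adjusted p = 0.00372, 0.0542 without DMSO 1), and IRF4 and PRDM1, the plasma-cell factors, fell (-0.68 ± 0.10, adjusted p = 0.00798, and -1.07 ± 0.17, adjusted p = 0.0123). The IRF4 call was lost without DMSO 1, 2 or 3 (adjusted p = 0.0505, 0.0605 and 0.0623), and over the alternatives PRDM1 reached an adjusted p of 0.0846. CIITA, the class II transactivator and a long transcript, was at 41.7, 66.2 and 70.3 CPM with bryostatin and 62.5, 62.1 and 57.4 CPM with DMSO (chosen after its values were seen). Bryostatin 1 was below and bryostatin 2 and 3 were above every DMSO library, and CIITA passed as higher without bryostatin 1 (0.17 ± 0.06, adjusted p = 0.0418) but not with the length trend also removed (adjusted p = 0.195). Without bryostatin 1, 4 of the 12 rose (CD74, CIITA and the class II genes HLA-DMA and HLA-DRA) and 2 fell. In that fit 13.8% of all genes were called higher and 13.2% lower. HLA-DMA and HLA-DRA also passed as higher with all libraries once the length trend was removed (adjusted p = 0.0161 and 0.0379).

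The genes most like EZH2 over the 6 libraries, by Pearson's r of log2 CPM among 8178 genes with a mean of at least 10 CPM over the libraries, were QPRT (r = 0.996), EIF4E (r = 0.995) and TCF12 (r = 0.993). QPRT, an enzyme of NAD synthesis, was at 8.29, 8.35 and 9.29 CPM with bryostatin and 14.1, 12.0 and 12.8 CPM with DMSO (log2 fold change -0.59 ± 0.12, edgeR adjusted p = 0.0302). QPRT passed the mean level through its DMSO libraries. Its call was lost without bryostatin 2 or 3 or any 1 DMSO library (adjusted p = 0.0672 to 0.175), with the replicate block (0.0881) and on both log2 TPM scales (limma adjusted p = 0.0687 and 0.0693). EIF4E, the cap-binding translation factor, had -0.22 ± 0.06 (adjusted p = 0.0891) and TCF12, an E-protein transcription factor, -0.16 ± 0.06 (adjusted p = 0.231). All were lower in the 3 bryostatin libraries than in the 3 DMSO libraries, as the choice by likeness to EZH2 favours.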

How the data were processed

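The authors deposited 1 table for the 6 SC1 libraries. Per the labels' protocols, RNA with poly(A) tails was fragmented, primed at random and sequenced from both ends. The deposited expected counts are estimates that need not be whole, and the deposited FPKM divide them by effective transcript length and depth. The TPM, also deposited by the authors, sum to 1000000 per library. The submitters' processing notes name GRCh38, DESeq2 1.40.2, RSEM 1.2.28 and HISAT2 2.2.1 without saying what each did. Overlapping genes are uncertain, since neither the annotation nor strand handling is given in the sources used here.

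After rounding, expected counts went into the robust quasi-likelihood test of edgeR 4.0.16 (R 4.3.3) with filterByExpr and TMM scaling. Its 2-sided p-values were adjusted by Benjamini-Hochberg over 11613 genes, and genes under 0.05 were called. The SE is the log2 fold change divided by the root of F. Differences by library use log2 CPM with a prior count of 2. Effective length is the count divided by FPKM and by the summed counts of the library, so lengths are relative, and the median was used where FPKM was at least 0.1. The length offset removed, per library, a lowess trend (span 0.3) on log2 length of log2 CPM minus the gene's mean over the libraries. Ratios and lengths were compared by exact permutation tests over 20 assignments. The fit was tested on simulated data with and without a length tilt in 1 library.

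Bryostatin 1 had a TMM factor of 0.952 (1.00 to 1.02 in the other libraries) and a limma 3.58.1 quality weight of 0.104 (1.22 to 1.90 in the others). Alternatives were other scaling factors, other filters, DESeq2 1.42.0, limma-voom, quality weights, limma on log2(TPM + 1) and log2(TPM + 0.1), the length offset, the replicate block and each library left out. The length offset without bryostatin 1 was added after seeing the data. The members and lists were chosen with earlier results of these data known. Named genes were the 8 members, the 2 other genes of each list with the smallest p (1 of them is not reported here), and the 3 genes of a mean of at least 10 CPM most like the member with the smallest p. On the lists, SMARCD3, H1-3 and SOCS3 were not tested because of low counts. RefSeq promoter windows matched 8 of 8 members.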

Additional observations from a re-analysis of the deposited data

How the results depend on the processing

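The count of regulators called stayed at 0 of 8 except that leaving out bryostatin 1 gave 2 higher and 1 lower, quality weights gave 1 lower, and the length offset without bryostatin 1 gave 1 lower. Leaving out any 1 library thus gave 0 to 2 higher and 0 to 1 lower. Without bryostatin 1 the sign turned for EP300 (0.11) and ARID1A (0.14), which then passed, and with 1 library left out their log2 fold changes spanned -0.22 to 0.11 and -0.17 to 0.14. Over all genes, 432 rose and 97 fell. The counts were 1609 and 1431 with quality weights, 266 and 195 on log2(TPM + 1), 267 and 199 on log2(TPM + 0.1), 783 and 464 with the length offset, 1646 and 1639 with that offset and no bryostatin 1, and 128 to 1632 and 10 to 1551 with 1 library left out. DESeq2 gave 236 lower. The 1 riser among listed chromatin genes became 3 by DESeq2, 16 with quality weights, 4 with the length offset, 13 with the offset and no bryostatin 1, and 1 to 18 with 1 library left out. The 0 lower became 1 with RLE factors, library size alone, DESeq2 or the length offset, 2 with quality weights, 5 with the offset and no bryostatin 1, and 0 to 3 with 1 library left out. The cause of these moves was not tested. The TPM values with a pseudocount of 0.1 moved the median of all genes to -0.10.

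With the replicate number as a block, 284 genes rose and 54 fell and 0 of 8 regulators passed. Deviations of same-numbered libraries from their group means had correlations of -0.21, -0.17 and 0.03. The labels do not say whether libraries of the same number belong together. With 3 libraries a group these correlations cannot settle it. The p-values rest on 3 libraries a group, and the SE of KMT2D was 0.36 with bryostatin 1 included and 0.06 without it.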
